A study of Mus musculus with 6 samples.

Results

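SPARC family and matricellular genes were examined in mouse 3T3-L1 cells after knockdown of the RNA-binding protein RBMS1. The 10 members, of 45706 genes in the count table, were Sparc, Sparcl1, Smoc1, Smoc2, Spock1, Spock2, Thbs1, Thbs2, Spon1 and Postn. They were taken by gene name, and the list was chosen on the values of Smoc2, whose reads appeared in the knockdown samples. Smoc2 is therefore described without a test, while the other members were tested in a fit of all genes. 3T3-L1 is a fibroblast line from mouse embryos that can be turned into adipocytes in culture. RNA was collected on day 7 after a differentiation cocktail of IBMX, insulin, dexamethasone and rosiglitazone, which both groups received. The 3 scrambled control samples carried a scrambled shRNA and are labelled WT, and the 3 RBMS1 knockdown samples carried an Rbms1 shRNA and are labelled RBMS1KD. In the study's methods, shRNA was delivered by lentivirus, followed by puromycin selection.

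Matricellular proteins are secreted into the extracellular matrix but, unlike collagens, are not its main structural elements. They bind matrix proteins, growth factors and cell surface receptors, and so tune adhesion, matrix assembly and signaling. SPARC, the founding member of its family, binds collagen and calcium, and mice that lack it are known to have more adipose tissue. Thrombospondins act through receptors such as CD36, CD47 and integrins, and periostin acts through integrins. Preadipocytes and other fibroblasts are known sources of these proteins.

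RBMS proteins are known to bind AU-rich RNA, and AUAUA is a sequence they recognise. The 3′ UTRs of the members, taken from GENCODE M21 on GRCm38, were therefore searched on the sense strand for ATATA, its DNA spelling, with overlapping matches counted. The first match in each of the 6 members below is shown to compare its surroundings between members. Each is given 5′ to 3′ on the strand of the gene, in lower case, with the first match in capitals. Further matches within a window, as in Smoc1 and Sparcl1, stay in lower case.
Smoc2, chr17:14403576-14403604, plus strand: aaaacaaaaaacATATAgtatttgcactt
Smoc1, chr12:81184878-81184906, plus strand: agaaagagatttATATActgtatataaat
Thbs2, chr17:14666444-14666472, minus strand: aaatgatttggaATATAgcttcactcatc
Thbs1, chr2:118126027-118126055, plus strand: tttaacaatgtaATATAtttattttgttc
Postn, chr3:54390315-54390343, plus strand: accacagagtttATATAatcctaaatcaa
Sparcl1, chr5:104079382-104079410, minus strand: tacttcttggtgATATAtatatgagccag

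The Thbs2 3′ UTR (2013 bases) held 6 matches, and 80.5% of the 2601 genes with a 3′ UTR within 20% of that length held at least 1 match, with a median of 2. The Smoc2 3′ UTR (1278 bases) held 1 match, equal to the median of 2709 genes of like length, of which 66.9% held one. The 438 bases of Sparcl1 held 3 matches, which overlap in the single AT run shown, with at least 1 match in 31.9% of 1952 genes of like length and a median of 0. Smoc1 held 4 matches in 1845 bases (median 2 at like length), Postn 3 in 735 bases (median 1) and Thbs1 2 in 2104 bases (median 2). The 1085 bases of Sparc held none, whereas 62.1% of 2725 genes of like length held one. Among the scarce members, Spock2 held 3 (median 5), Spon1 2 (median 4) and Spock1 1 (median 2). A match describes these letters in this window and is not evidence of binding.

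Total counts ranged from 3142695 in scrambled control replicate 2 to 11073098 in RBMS1 knockdown replicate 3. Levels below are in CPM, read counts divided by library size and corrected with TMM factors. A count of 0 allows up to 3 counts, or 0.220 to 1.49 CPM depending on the sample, and these floors and the counting intervals cover counting error only. Genes derived from ribosomal RNA took 43.0% of the counts in scrambled control replicate 2 and 8.12% to 17.8% elsewhere. Rbms1, the target, had 113, 102 and 99.6 CPM in the control samples and 49.2, 61.4 and 84.0 CPM in the knockdown samples, given here and below in the order of the replicate numbers. It was lower in each knockdown sample, with a log2 fold change (knockdown minus control, as throughout) of -0.69 (SE 0.20). This missed the threshold (adjusted p = 0.185, from the quasi-likelihood test of edgeR after Benjamini-Hochberg correction over 11440 tested genes), as it did with DESeq2 (adjusted p = 0.108). The study showed the knockdown of the protein by immunoblotting.

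The members covered very different levels, from abundant Sparc to undetected Spock1. Per kilobase of merged exon length, the scrambled control median was 465 CPM per kb for Sparc (range 423 to 482). Postn (83.5, range 76.0 to 113), Thbs1 (49.4, range 42.0 to 76.3) and Sparcl1 (40.1, range 35.1 to 51.5) followed, in the same unit. Sparc stood apart from Postn, while the range of Postn met that of Thbs1, and the range of Thbs1 met that of Sparcl1. Thbs2 (30.3, range 26.5 to 33.0) lay below Sparcl1 without overlap. Smoc1 had 1.10 CPM per kb (range 0.591 to 1.28), and Spock2 had a median of 0.0622. Smoc2, Spock1 and Spon1 had medians of 0.

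In the RBMS1 knockdown, Sparc was again first, with a median of 381 CPM per kb (range 340 to 515). Thbs1 had a median of 103 (range 13.4 to 117), Postn 77.0 (range 26.6 to 77.4) and Sparcl1 64.1 (range 41.6 to 72.1), so that these ranges overlapped. Thbs2 had a median of 16.6 (range 14.7 to 22.6). Smoc2 and Smoc1, which were far apart in the control samples, had overlapping knockdown ranges, 0.286 to 0.310 CPM per kb for Smoc2 and 0.288 to 0.546 for Smoc1.

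**Figure D1:**
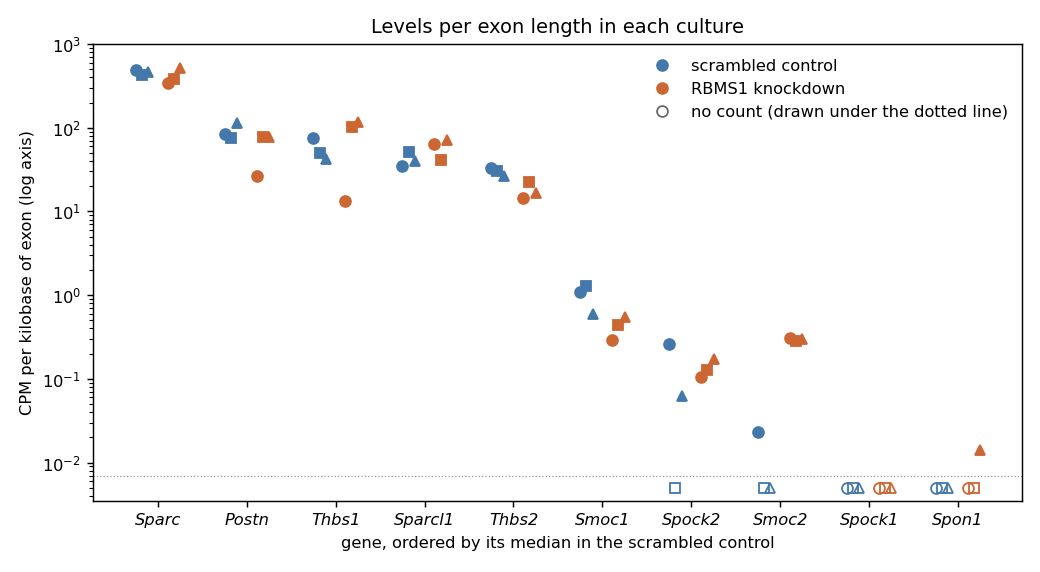
Level of each member in CPM per kilobase of merged exon length, on a log axis, in each of the 6 samples, with circles, squares and triangles for replicates 1, 2 and 3 and open symbols under the dotted line for samples with no count. Sparc had the highest level in every sample (340 to 515 in the knockdown), and Spock1 was not detected in any sample.

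Of the 10 members, 7 passed the filter on low counts, Smoc2 through its knockdown samples alone. By edgeR, none of the 6 others that passed was called (adjusted p no higher than 0.1), against 140 of all 11440 tested genes (1.22%). At an unadjusted p under 0.05 there were 2 of these 6 (Thbs2 and Smoc1), against 12.4% of all tested genes. DESeq2, run without that count filter, called 1 (Thbs2), against 3.20% of the genes to which it gave an adjusted p. The knockdown samples lay below the control samples without overlap for Smoc1 and Thbs2, 2 of the 6, against 9.55% of all tested genes. None of the 6 lay above without overlap, against 8.96% of all tested genes. The fitted log2 fold change was below 0 for 4 and above 0 for 2, with a median of -0.37, beside 0.0044 over all tested genes. The median of the 6 was -0.12 without RBMS1 knockdown replicate 1. With library sizes alone it was -0.00072, where the median of all genes was 0.37. Its value thus moved with the scaling, while it lay below the median of all genes with and without TMM factors.

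**Figure D2:**
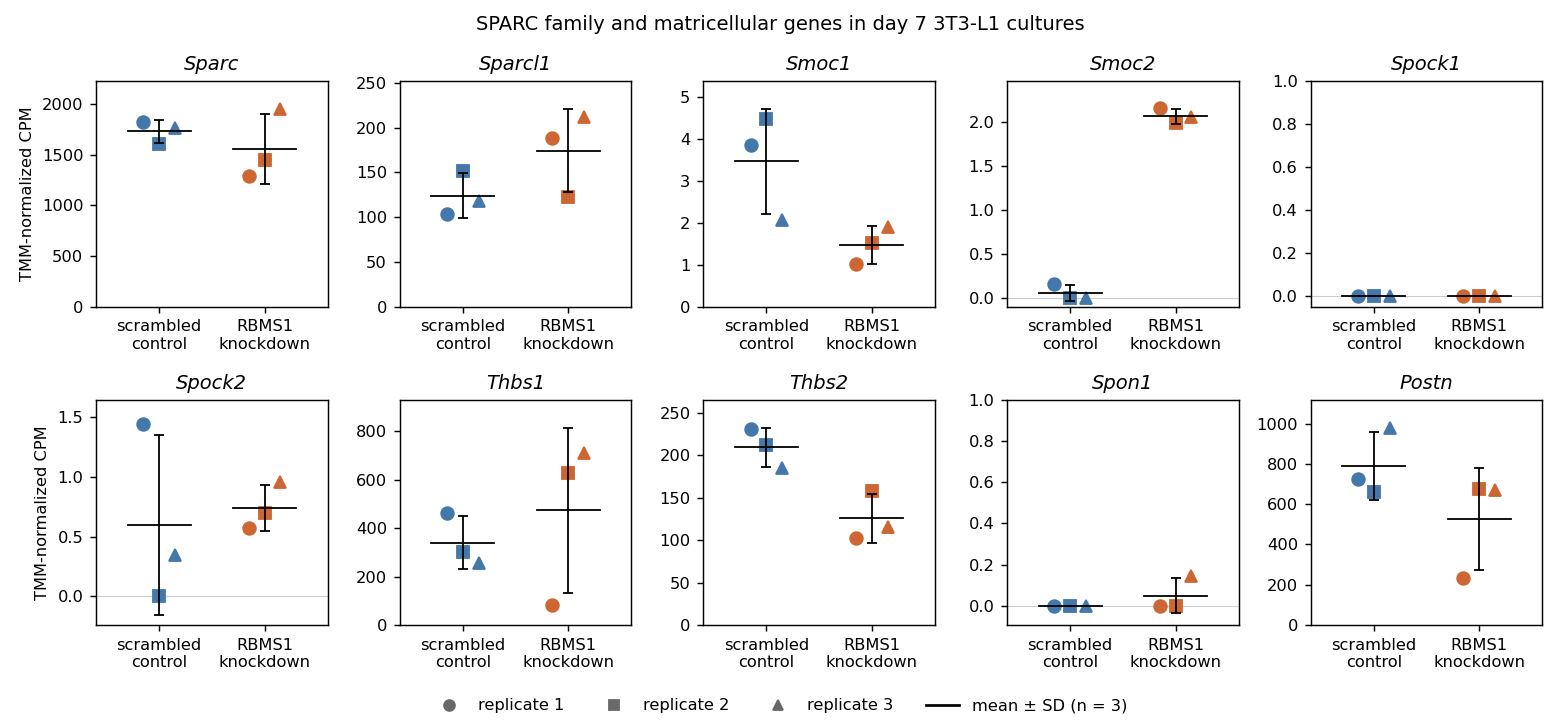
TMM-normalized CPM of the 10 members on linear axes, with a point for each replicate and the mean ± SD (n = 3) of each group. The groups were separate for Smoc2, higher in the knockdown, and for Smoc1 and Thbs2, lower in the knockdown, while RBMS1 knockdown replicate 1 was far below the other knockdown samples for Thbs1 (81.7) and Postn (232).

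Sparc (ENSMUSG00000018593, chr11:55394500-55423183, minus strand), also called osteonectin, is the collagen-binding prototype of the family. It had 1827, 1604 and 1763 CPM in the control samples and 1287, 1444 and 1949 CPM in the knockdown samples. The groups overlapped, since the highest and the lowest values were both in knockdown samples. Means were 1731 ± 115 and 1560 ± 346 CPM (SD, n = 3 each), and the log2 fold change was -0.15 (SE 0.23, adjusted p = 0.842, edgeR). Leaving out single samples moved it between -0.34 (RBMS1 knockdown replicate 3 left out) and -0.020 (replicate 1 left out). The reads behind these levels were many, at 3231 to 26555 per sample.

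Sparcl1 (ENSMUSG00000029309, chr5:104079111-104113733, minus strand), or hevin, is the close relative of SPARC known for its role in synapse formation. Its levels were 103, 151 and 118 CPM in the control and 188, 122 and 212 CPM in the knockdown. RBMS1 knockdown replicate 2 lay within the control range and the other 2 above it. The log2 fold change was 0.49 (SE 0.23, adjusted p = 0.418, edgeR), and it ran from 0.33 to 0.71 as each sample was left out. The antisense gene Gm26703 at this locus had 9 counts over all samples.

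Smoc1 (ENSMUSG00000021136, chr12:81026808-81186414, plus strand) encodes a calcium-binding matrix protein that modulates BMP signaling in development of the eye and limb. It had 3.85, 4.47 and 2.06 CPM in the control samples and 1.01, 1.52 and 1.91 CPM in the knockdown samples. All 3 knockdown values lay below all 3 control values, although 2.06 and 1.91 were close. These levels rested on 9 to 24 reads per control sample and 7 to 26 per knockdown sample. The log2 fold change was -1.13 (SE 0.50), and it did not pass the threshold (adjusted p = 0.400, edgeR).

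Smoc2 (ENSMUSG00000023886, chr17:14279506-14404790, plus strand) encodes the paralog of SMOC1, a matrix protein linked to growth factor responses and angiogenesis. The scrambled control samples held 1, 0 and 0 reads, or 0.160, 0 and 0 CPM. The knockdown samples held 15, 17 and 28 reads, which gave 2.16 CPM (95% exact Poisson interval 1.21 to 3.56), 1.99 (1.16 to 3.18) and 2.06 (1.37 to 2.97). The knockdown samples were all above the control samples and differed from one another by less than their counting intervals.

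The floor of 3 counts stood at 1.49 CPM in scrambled control replicate 2 and at 0.516 CPM in replicate 3, both below the lowest knockdown level. The exact Poisson upper limit in scrambled control replicate 2 was 1.83 CPM, above the lower limits of all 3 knockdown samples. With 60 reads against 1, the depth-scaled ratio was 29.0, with a 95% exact binomial interval from 5.0 to 1163 that covers the counting error of the pooled reads only. Since the only control read lay in replicate 1, no control read was left without that sample. These values chose the list, so the ratio and its interval describe them and are no test. A gene on the opposite strand, 4930474M22Rik, overlaps Smoc2 in GENCODE M21 but was not in the count table. Deposited counts came from a stranded library, but the strand setting was not given in the sources used here.

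Spock1 and Spock2 encode testicans, proteoglycans of the SPARC family that are best known from brain. Spock1 (ENSMUSG00000056222, chr13:57421195-57908332, minus strand) had no read in any of the 6 samples. Spock2 (ENSMUSG00000058297, chr10:60106219-60135198, plus strand) had 9, 0 and 2 reads in the control samples and 4, 6 and 13 in the knockdown samples, and did not pass the filter. In CPM this was 1.44, 0 and 0.344 against 0.575, 0.701 and 0.954, so the knockdown samples fell inside the control range. The depth-scaled ratio of the summed reads was 1.01 (95% exact binomial interval 0.473 to 2.29), and a difference was not detectable at this depth.

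Thbs1 (ENSMUSG00000040152, chr2:118111876-118127133, plus strand) encodes thrombospondin 1, which inhibits angiogenesis and activates latent TGF-beta. It had 464, 300.3 and 255 CPM in the control samples and 81.7, 626 and 711 CPM in the knockdown samples. RBMS1 knockdown replicate 1 was the lowest of all 6 samples, and the other 2 knockdown samples were the highest. The log2 fold change over all samples was 0.48 (SE 0.60, adjusted p = 0.802, edgeR). Without RBMS1 knockdown replicate 1 it was 0.98 (SE 0.23, adjusted p = 0.0521), past the threshold, and without RBMS1 knockdown replicate 3 it was 0.061. The former setting called 5.94% of all genes. The antisense gene Gm29233 had 1 count in all.

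Thbs1 was widely spread within the knockdown. Its highest knockdown value was 8.70 times the lowest, and only 0.588% of the 8160 tested genes with a mean of at least 10 CPM were as widely spread. The median ratio over those genes was 1.35. In the control samples the Thbs1 ratio was 1.82.

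Thbs2 (ENSMUSG00000023885, chr17:14665500-14694235, minus strand) encodes thrombospondin 2, which is known to shape collagen fibrils and to aid the clearance of matrix metalloproteinase 2. It had 231, 212 and 185 CPM in the control samples and 103, 158 and 116 CPM in the knockdown samples. Every knockdown sample lay below every control sample. The means were 209.6 ± 23.0 and 126 ± 29.0 CPM (SD, n = 3 each). The log2 fold change of -0.74 (SE 0.19) missed the threshold with edgeR (adjusted p = 0.146) and passed it with DESeq2 (log2 fold change -0.72, adjusted p = 0.0296). Over all 13 alternatives the adjusted p ran from 0.0296 to 0.491, and the direction was the same in each.

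Thbs2 is also a neighbour of Smoc2, 260709 bases away on chromosome 17 and on the other strand. Thbs2 was lower in every knockdown sample and Smoc2 higher, but the Smoc2 values chose the list. The contrast of the pair is therefore a description and was not tested. Within 1 Mb of Smoc2 the table held 32 other genes, of which 6 were tested. None of the 6 was called by edgeR, against 1.22% of all tested genes, so this count says little about the region. Thbs2, among them, passed the threshold with DESeq2 (adjusted p = 0.0296). The log2 fold changes of the 6 ran from -0.74 for Thbs2 to 0.22 for Afdn, a gene named here after its value was seen.

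Spon1 (ENSMUSG00000038156, chr7:113765998-114043370, plus strand), which encodes F-spondin, a protein that guides axons, was at the edge of detection. It had no read in the control samples and 0, 0 and 2 reads in the knockdown samples, the last equal to 0.147 CPM. No fold is given, because both groups lay under the floor.

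Postn (ENSMUSG00000027750, chr3:54361109-54391037, plus strand) encodes periostin, an integrin ligand that promotes collagen crosslinking. It had 726, 662 and 980 CPM in the control samples and 232, 673 and 670.4 CPM in the knockdown samples. As for Thbs1, RBMS1 knockdown replicate 1 was the lowest of all samples, while the other 2 knockdown samples lay within the control range. Means were 789 ± 168 and 525 ± 254 CPM (SD, n = 3 each), with a log2 fold change of -0.59 (SE 0.36, adjusted p = 0.557, edgeR). Without RBMS1 knockdown replicate 1 the log2 fold change was -0.22. Its highest knockdown value was 2.90 times its lowest, and 4.41% of the 8160 genes were as widely spread.

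Marker genes of the cell types a culture could hold were summed in CPM to check the label and set beside the members. The sum of 10 adipocyte markers was 21004 to 24476 in the control samples and 19765, 10894 and 12766 in the knockdown samples, so that the cultures carried adipocyte transcripts. The knockdown sums lay below the control sums, and a sum is weighted towards its most abundant genes. Of the 9 tested markers, 1 (Retn) was called, against 1.22% of all tested genes. Single genes lay lower without overlap in 9.55% of all tested genes. In the study's own assays, lipid content and the expression of PPARγ and adiponectin were not affected by the knockdown. The 9 fibroblast or preadipocyte markers summed to 7125 to 8259 in the control samples and to 3799, 7902 and 7267 in the knockdown samples. RBMS1 knockdown replicate 1 was thus the lowest sample for these markers, as it was for Sparc, Smoc1, Thbs1, Thbs2 and Postn. The 4 smooth muscle markers also had their lowest sum in RBMS1 knockdown replicate 1, with 12.1 CPM. They had 232 and 332 in the other knockdown samples and 94.3 to 203 in the control samples, with Cnn1 at 0 in every sample. The part of these differences in the members' values was not tested, and in such bulk samples fewer cells of a type and less RNA per cell cannot be told apart.

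Other cell types had low sums. The 6 macrophage markers summed to 2.72 to 5.46 CPM in the control and 4.89 to 9.40 in the knockdown, with Ptprc and Adgre1 at 0 in every sample. The 5 endothelial markers summed to at most 1.99 CPM in any sample, with Kdr at 0. The 7 osteoblast or chondrocyte markers summed to 60.0 to 92.8 CPM in the control and 56.2 to 75.1 in the knockdown, with Acan at 0.

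**Figure D3:**
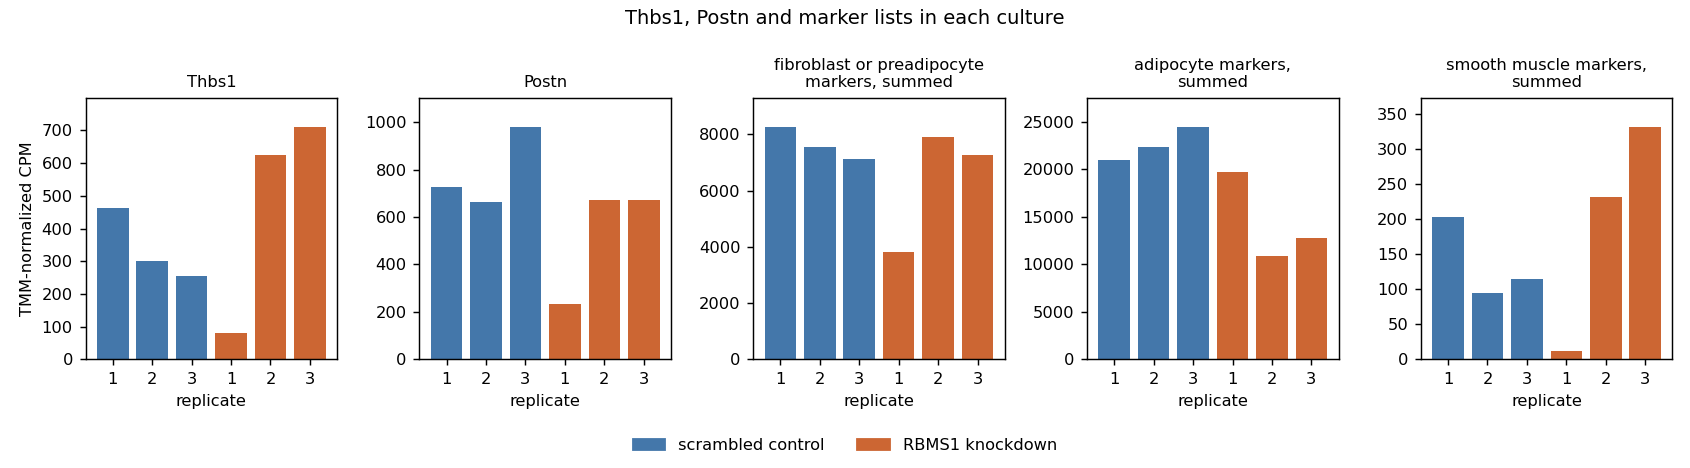
CPM of Thbs1 and Postn and summed CPM of the fibroblast or preadipocyte, adipocyte and smooth muscle marker lists, with a bar for each sample. RBMS1 knockdown replicate 1 had the lowest sum of fibroblast or preadipocyte markers (3799) and of smooth muscle markers (12.1), and all knockdown samples were below the control samples for adipocyte markers.

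Further matricellular genes outside the 10 were 18 related genes of the SPARC, thrombospondin, spondin, tenascin and CCN groups, with osteopontin and Tgfbi. Of these, 14 were tested and none was called by edgeR, against 1.22% of all tested genes. At an unadjusted p under 0.05 there were 2 of the 14, near the 12.4% of all tested genes. There were 7 below 0 and 7 above 0, with a median log2 fold change of -0.073. Its sign turned as single samples were left out, from -0.33 without scrambled control replicate 3 to 0.41 without scrambled control replicate 1. Spock3, Thbs4 and Wisp3 had no read. The most abundant was Fstl1, a SPARC-related secreted glycoprotein, with 334, 297 and 352 CPM in the control and 114, 329 and 353 CPM in the knockdown. Its log2 fold change was -0.30 (SE 0.35, adjusted p = 0.776, edgeR). Cyr61, the CCN family member also called Ccn1, had 245, 160.3 and 105 CPM against 5.32, 115 and 68.5 CPM, with a log2 fold change of -1.44 (SE 0.77, adjusted p = 0.491, edgeR). In both genes RBMS1 knockdown replicate 1 was the lowest sample, as in Sparc, Smoc1, Thbs1, Thbs2 and Postn.

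Nov, the CCN family member also called Ccn3, was chosen after its values were seen, since its call turned with the setting. It had 6.57, 3.97 and 4.13 CPM in the control samples and 0, 1.17 and 0.881 CPM in the knockdown samples, which did not overlap. The log2 fold change was -2.76 (SE 0.69, adjusted p = 0.140, edgeR), while with DESeq2 the adjusted p was 0.0137. When RBMS1 knockdown replicate 1 was left out, Nov (adjusted p = 0.0484) and Tnc, which encodes tenascin C (log2 fold change 2.63, adjusted p = 0.0518), passed the threshold with edgeR, as did 5.94% of all genes in that setting. Tnc had 12.8, 3.97 and 4.99 CPM in the control samples and 3.88, 14.5 and 77.5 CPM in the knockdown samples. Over all samples its groups overlapped and it was not called (adjusted p = 0.383, edgeR).

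Receptors and co-receptors of thrombospondins, periostin and SPARC were 18 genes. Of these, 17 were tested and none was called by edgeR, against 1.22% of all tested genes. There were 7 of the 17 at an unadjusted p under 0.05, against 12.4% of all tested genes. The log2 fold change was below 0 for 5 and above 0 for 12, with a median of 0.28. The median was lowest without RBMS1 knockdown replicate 3 (0.182) and without scrambled control replicate 2 (0.184). The knockdown samples lay above the control samples without overlap for Cd36, Cd47, Itgb5 and Scarb2, 4 of the 17 against 8.96% of all tested genes. They lay below for Itgb1, Calr and Stim1, 3 of the 17 against 9.55%. Cd36, a thrombospondin receptor that also takes up fatty acids, had 788, 667 and 613 CPM in the control and 1299, 900.0 and 1204 CPM in the knockdown. Its log2 fold change was 0.72 (SE 0.21, adjusted p = 0.183 with edgeR and 0.0156 with DESeq2). DESeq2 also called Scarb2 (log2 fold change 0.71, adjusted p = 0.0247) and, in the other direction, Calr (log2 fold change -0.48, adjusted p = 0.0815). It called 3.20% of all genes to which it gave an adjusted p. Lrp1, an endocytic receptor that clears thrombospondins, had 1368, 1294 and 844 CPM in the control and 923, 1008 and 1092 CPM in the knockdown, which overlapped. Its log2 fold change was -0.21 (SE 0.23, adjusted p = 0.757, edgeR). Without RBMS1 knockdown replicate 1, edgeR called 4 of this list, namely Itgav, Itga6, Vcam1 and Scarb2, in a setting that called 5.94% of all genes.

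The fibrillar collagen list, with fibronectin and the procollagen-cutting enzyme Bmp1, held ligands of the members. All 9 genes were tested, and none was called by edgeR, against 1.22% of all tested genes. None had an unadjusted p under 0.05, against 12.4% of all tested genes. The median log2 fold change was 0.041, with 4 below 0 and 5 above 0. That median ran from -0.13 without RBMS1 knockdown replicate 2 to 0.19 without replicate 1. Col1a2 had 3353, 2821 and 3039 CPM in the control and 1927, 4680 and 5589 CPM in the knockdown, again with RBMS1 knockdown replicate 1 lowest. Col3a1 had 3046, 3672 and 3393 CPM against 2090, 3788 and 2708 CPM. The log2 fold changes were 0.40 (SE 0.38, adjusted p = 0.726) for Col1a2 and -0.24 (SE 0.29, adjusted p = 0.795) for Col3a1 by edgeR.

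**Figure D4:**
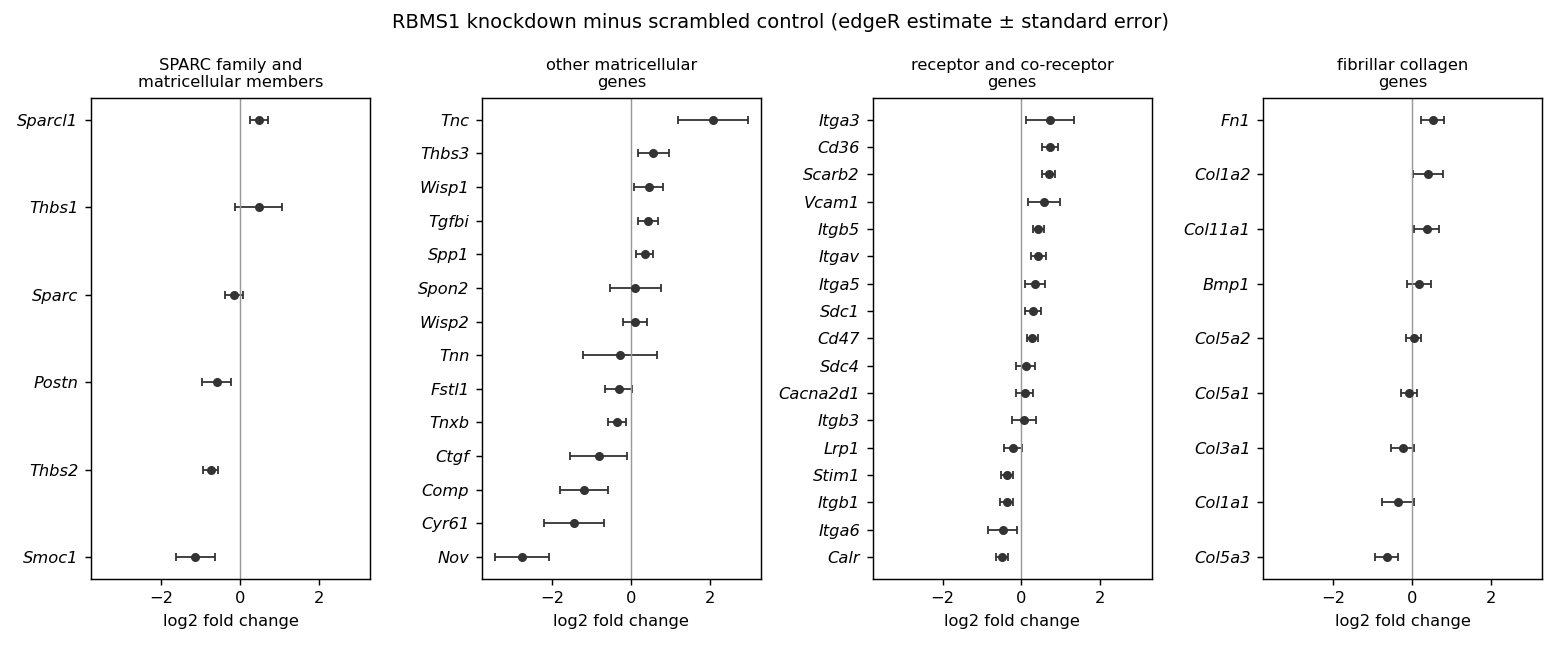
Log2 fold change (knockdown minus control, 3 samples each) with its standard error from edgeR's fit, for the 6 tested members other than Smoc2, which was not tested, and for the other matricellular genes, the receptors and co-receptors and the fibrillar collagen list. The members ran from -1.13 (Smoc1) to 0.49 (Sparcl1).

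Profiles over the 6 samples were compared with that of Smoc2 by the root mean square difference of centred log2 CPM, over 11439 other tested genes. A smaller value is more alike. The Smoc2 values used here chose the list, so genes low in the control and higher in the knockdown are closest by construction. With almost no control reads, the Smoc2 profile also depends on the prior count of 2. The ranking is a description only. The closest was Gm773 (0.393), with 2.89, 0.993 and 1.20 CPM in the control and 22.1, 20.3 and 12.3 CPM in the knockdown. Rnf130 (0.433) and Coro2a (0.442) followed, each with 3, 0 and 1 reads in the control. In the knockdown Rnf130 had 12, 26 and 24 reads and Coro2a had 26, 16 and 22. The genes most like Sparc were Angptl2 (0.0489), Map3k3 (0.0582) and Ano8 (0.0615). Like Sparc, each was lowest in RBMS1 knockdown replicate 1 and highest in replicate 3, with Angptl2 at 78.2 and 125 CPM in these samples.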

How the data were processed

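RNA from 6 differentiated 3T3-L1 cultures, 3 per group, was sequenced by the authors as stranded total RNA libraries. Per the labels, reads were trimmed with Trim Galore 0.6.7 and processed with STAR 2.7.10a and Salmon 1.9.0 on GRCm38, and the deposited values are estimated counts per gene without normalization. The annotation release used was not given in the sources used here. The members and lists were chosen with earlier results of these data known.

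Estimated counts, of which 3.97% to 7.78% per sample were not whole (tolerance 1e-06), were rounded. All 45706 genes entered one table, and 11440 passed filterByExpr (minimum count 10, minimum total 15). They were fitted in R 4.3.3 with edgeR 4.0.16 (TMM factors, glmQLFit and glmQLFTest) on the condition alone. Benjamini-Hochberg adjustment ran over all tested genes, with an adjusted p of 0.1 or less as the threshold. Standard errors were derived from the log2 fold change and its F statistic. The smallest p that exact permutation of 3 against 3 samples allows is 0.1, so no permutation test was run. Replicates are biological per the study's methods, and no pair of samples within a group held copied counts.

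Exon lengths, positions and 3′ UTRs came from GENCODE M21, with the best-ranked principal coding transcript per gene. The text names all members, Rbms1, the called genes and the 2 most abundant genes of each list, and the 3 genes most like Smoc2 and Sparc. Smoc2 was given no p-value. Alternatives were DESeq2 1.42.0 (without filterByExpr, with its independent filtering), RLE size factors, library sizes alone, removal of ribosomal RNA genes, no filter, 1 CPM in 3 samples, a replicate block and leaving out each sample. The scripts were tested on simulated counts.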

Additional observations from a re-analysis of the deposited data

How the results depend on the processing

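The 140 genes called by edgeR (104 lower, 36 higher) became 430 with DESeq2 (285 lower, 145 higher, 3.20% of the genes with an adjusted p), which was fitted on 19394 genes without the count filter so that both changed. They became 268 with no filter on low counts (1.38%) and 126 with library sizes alone (42 lower, 84 higher, 1.10%). Leaving out each sample gave 12 to 696 genes (0.101% to 5.94%), the highest without RBMS1 knockdown replicate 1 and the lowest without scrambled control replicate 2. With the replicate number as a block 39 genes were called. Same-numbered samples had correlations of -0.144, 0.0785 and -0.0284, so the numbers were not taken to pair samples, and not every sample correlated best with its own number. These shares are the background for the counts that follow. Of the 6 tested members besides Smoc2, 1 was called with DESeq2 (Thbs2) and 0 to 1 as each sample was left out, the 1 being Thbs1. Of the other matricellular genes, 1 was called with DESeq2, 1 with no filter and 0 to 2 with a sample left out. Of the receptors, 3 were called with DESeq2, 1 with library sizes alone, 1 with no filter and 0 to 4 with a sample left out. Library sizes alone moved the median of all genes by 0.37 on the log2 scale and turned Sparc to 0.23, or -0.15 relative to the median of all genes in that setting. The fitted log2 fold change of Smoc2, which depends on the prior count, ran from 3.94 to 6.94 with a sample left out. Rbms1 passed the threshold without RBMS1 knockdown replicate 3 (adjusted p = 0.0708, edgeR). The causes were not tested. Depth limits Smoc1, Smoc2, Spock2 and Spon1, which had at most 28 reads in a sample.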
